A study of Mus musculus with 12 samples.

Results

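The 6 genes described here are the Ikaros zinc finger transcription factors *Ikzf1*, *Ikzf2*, *Ikzf3*, *Ikzf4* and *Ikzf5*, together with *Foxp3*, measured in T cells that carried CD8, PD-1 and CD44. The cells came from NZB/W F1 mice, a lupus model obtained by crossing the NZB and NZW strains, in which nephritis appears as the animals age. They were chosen by gene symbol and form 6 of the 18992 gene identifiers listed in the deposited tables. All 6 were listed for the spleen at 12 weeks (12W spleen), the spleen at 28 weeks (28W spleen) and the kidney at 28 weeks (28W kidney). The 3 groups share the strain and the sort for PD-1+CD44+CD8+ cells, and the study worked with female mice. No treatment is named for them. Kidney tissue was digested with collagenase before the sort, a step not described for spleen. Each group has 4 samples by its labels, but its tables pool them, so each group was 1 library with no replicate, and the number of mice behind it is not stated. The labels of 28W spleen give 2 ages, with 12 weeks in a separate field, and the title was followed.

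Ikaros family proteins bind DNA through a block of zinc fingers near the N terminus and pair with one another through fingers at the C terminus. They recruit chromatin complexes such as NuRD and the CtBP and Sin3 co-repressors, and they set lymphocyte development and the expression of cytokine genes. *Ikzf1* encodes Ikaros, *Ikzf3* Aiolos, *Ikzf2* Helios, *Ikzf4* Eos and *Ikzf5* Pegasus. Helios and Eos are best known from regulatory T cells, whose defining factor is Foxp3, and Helios also marks a CD8+ regulatory T cell type that carries Ly49 receptors.

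The libraries held 6481 to 7135 cells in 10 to 12 clusters each (33 in all) and 29937384 to 34742303 UMIs, the molecular tags that count captured transcripts. Levels are UMIs per 1000000 UMIs of a library or cluster (CPM), with exact 95% Poisson intervals in parentheses that cover counting error only. A count of 0 allows up to 3 counts, or 0.0864 to 0.1002 CPM over a library. Transcripts of the CD8 T cell list (*Cd8a*, *Cd8b1*, 3 *Cd3* genes and *Trac*) had 4657 to 5997 CPM. The CD4 T cell list (*Cd4*, *Zbtb7b* and *Cd40lg*) had 4.32 CPM in 12W spleen, then 8.49 CPM in 28W spleen and 17.6 CPM in kidney. In the same order the B cell list had 62.4, 100.5 and 225 CPM and the myeloid list 31.3, 49.8 and 362 CPM. Clusters were numbered by the authors within each library and are not matched across libraries. Cluster 8 of 12W spleen, cluster 11 of 28W spleen and cluster 2 of 28W kidney were rich in mitochondrial UMIs (8.98%, 6.64% and 10.8%, over 5% in no other cluster) and had 928, 1288 and 1200 UMIs per cell. Values that rest on these 3 mitochondria-rich clusters are given with and without them. Cluster 8 of 28W spleen was as shallow, at 1020 UMIs per cell, with 1.71% mitochondrial UMIs and 40824 CPM of erythroid list transcripts. Between 52 and 66 cell barcodes were shared by any 2 libraries.

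On GRCm38 (GENCODE M21 annotation) the members lie on 5 chromosomes. *Ikzf1* lies at chr11:11685003-11772926 on the plus strand and *Ikzf3* at chr11:98464902-98546031 on the minus strand. *Ikzf2* lies at chr1:69531214-69687245, *Ikzf4* at chr10:128630843-128645991 and *Ikzf5* at chr7:131388652-131410521, all on the minus strand. *Foxp3* lies at chrX:7573644-7595245 on the plus strand. *Flicr*, a noncoding RNA gene on the same strand as *Foxp3*, overlaps it and had 8, 8 and 4 UMIs in 12W spleen, 28W spleen and kidney. *Fgfr2* spans *Ikzf5* on its strand and had 0, 1 and 5 UMIs.

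The DNA-binding fingers are the part of the family that is most alike, and the coding sequence of a finger is shown because it tells how far transcripts of the members can be told apart there. The stretch is the 63 coding bases of the second finger of Ikzf1 to Ikzf4 and of the first finger of Ikzf5, read 5′ to 3′ on the strand of the gene from GRCm38, with capitals at bases that differ from *Ikzf1*.
Ikzf1, exon 6, chr11:11754024-11754086: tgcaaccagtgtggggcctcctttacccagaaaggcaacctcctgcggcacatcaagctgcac
Ikzf2, exon 5, chr1:69570581-69570643: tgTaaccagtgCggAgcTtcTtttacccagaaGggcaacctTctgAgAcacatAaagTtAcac
Ikzf3, exon 5, chr11:98488940-98489002: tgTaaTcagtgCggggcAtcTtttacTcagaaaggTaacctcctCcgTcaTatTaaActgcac
Ikzf4, exon 5, chr10:128640229-128640291: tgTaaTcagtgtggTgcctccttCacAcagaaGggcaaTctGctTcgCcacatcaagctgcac
Ikzf5, exon 3, chr7:131393759-131393821: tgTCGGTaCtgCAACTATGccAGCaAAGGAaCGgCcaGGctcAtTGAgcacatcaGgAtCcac
*Ikzf2* and *Ikzf3* each differed from *Ikzf1* at 12 of the 63 bases and *Ikzf4* at 10, yet all 4 encode the same 21 residues. *Ikzf5* differed at 34 bases and shared 6 of 21 residues. Over whole transcripts, the longest run of bases shared by any 2 members was 32, between *Ikzf2* and *Ikzf4*, and 26 between *Ikzf1* and *Ikzf3*.

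*Ikzf2* was the member that differed most between libraries among those with at least 5 CPM. It had 3780 UMIs in 12W spleen against 1608 in 28W spleen, and 633 in kidney. These are 109 CPM (105 to 112), 50.2 CPM (47.8 to 52.7) and 21.1 CPM (19.5 to 22.9). The intervals did not overlap, and the level was lower with age in spleen and lower again in kidney. *Ikzf3*, which encodes Aiolos, had 153 CPM (149 to 157), 142 CPM (138 to 146) and 214 CPM (209 to 219.6) in the same order, highest in kidney. *Ikzf1*, the founding member, had 139 CPM (135 to 143), 121 CPM (118 to 125) and 102 CPM (98.0 to 105), a smaller spread in the same order as *Ikzf2*.

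**Figure D1:**
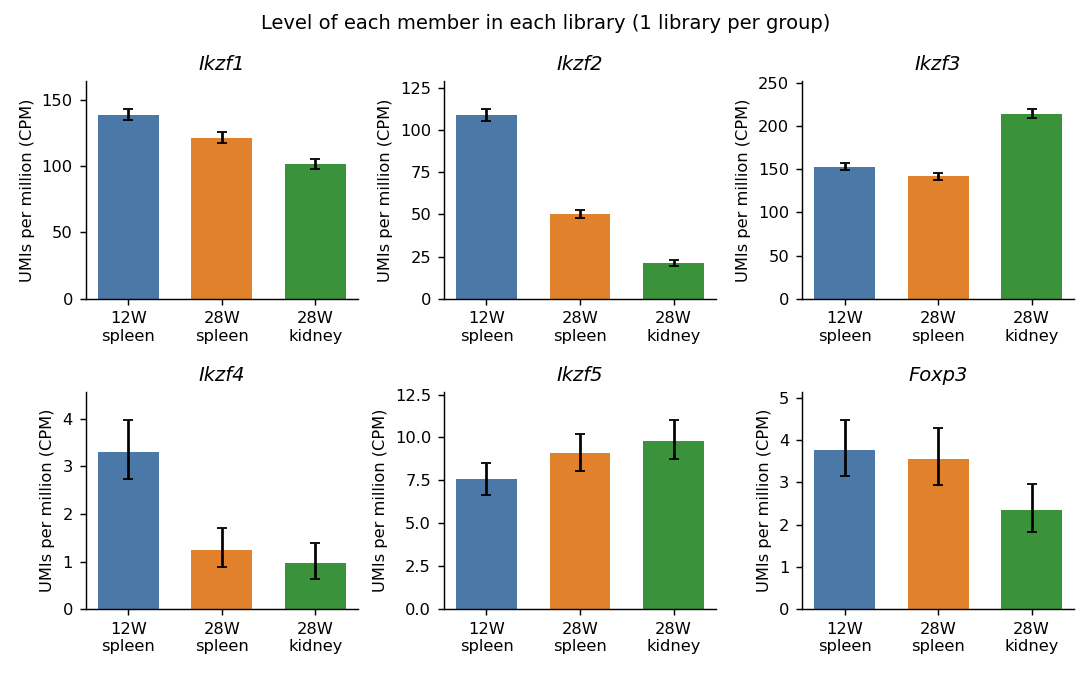
Level of each member in UMIs per 1000000 (CPM, linear axis from 0) in the 3 libraries, 1 library per group, with exact 95% Poisson intervals as error bars. Ikzf2 stands at 109 CPM in 12W spleen, 50.2 CPM in 28W spleen and 21.1 CPM in kidney, while Ikzf3 is highest in kidney at 214 CPM.

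The other 3 members were sparse. *Ikzf4*, which encodes Eos, had 115, 40 and 29 UMIs, or 3.31 CPM (2.73 to 3.97), 1.25 CPM (0.892 to 1.70) and 0.969 CPM (0.649 to 1.39), and the last 2 intervals overlap. *Foxp3* had 131, 114 and 70 UMIs, or 3.77 CPM (3.15 to 4.47), 3.56 CPM (2.94 to 4.28) and 2.34 CPM (1.82 to 2.95), with the 2 spleens overlapping. *Ikzf5*, which encodes Pegasus, had 7.57 CPM (6.68 to 8.54), 9.09 CPM (8.07 to 10.2) and 9.82 CPM (8.73 to 11.01), and neighbouring intervals overlap. At such levels most cells gave no UMI of the gene, with 9.81 to 19.0 *Foxp3* UMIs and 4.06 to 16.7 *Ikzf4* UMIs per 1000 cells. In these sums, fewer cells with a transcript and less transcript per cell cannot be told apart.

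The first comparison of the study is age, 28W spleen over 12W spleen, between advanced disease and the stage before it. A single library per group allows no test, and a difference is described by its log2 ratio of CPM with an exact 95% interval for counting error. A gene was called past the fold when it differed at least 2-fold, and the background was every gene with at least 5 CPM in either library. *Ikzf2* was 2.17-fold lower at 28 weeks (log2 -1.12, -1.20 to -1.03). Of the 4 members with at least 5 CPM it was the only one past 2-fold, against 1.27% of 8919 genes that were at least 2-fold lower and 2.26% that were at least 2-fold higher. A lower ratio than that of *Ikzf2* was found for 0.897% of those genes.

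*Ikzf4*, under 5 CPM in both spleens, was also lower at 28 weeks, 2.65-fold (log2 -1.41, -1.96 to -0.88), on 115 and 40 UMIs. *Ikzf1* had a log2 ratio of -0.19 (-0.25 to -0.13) and *Ikzf3* of -0.10 (-0.16 to -0.05), where the median over all 8919 genes was -0.10. *Ikzf5* had 0.26 (0.02 to 0.51) and *Foxp3* -0.08 (-0.46 to 0.29), the latter within counting error.

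The second comparison is organ, 28W kidney over 28W spleen, and it shares the 28W spleen library with the first. *Ikzf2* was 2.37-fold lower in kidney (log2 -1.25, -1.38 to -1.11), again the only member of the 4 past 2-fold, against 1.77% of 9274 genes at least 2-fold lower and 7.12% at least 2-fold higher. A lower ratio was found for 1.003% of those genes. *Ikzf3* was 1.51-fold higher in kidney (log2 0.59, 0.54 to 0.65), where the median gene was at 0.08. *Ikzf1* was lower by less (log2 -0.26, -0.33 to -0.19).

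*Foxp3* was 1.52-fold lower in kidney (log2 -0.61, -1.06 to -0.16) on 114 and 70 UMIs. For *Ikzf4* (-0.37, -1.11 to 0.36) and *Ikzf5* (0.11, -0.13 to 0.35) the interval held 0. The scaling moved all organ ratios together. Dividing by a total without receptor, immunoglobulin, mitochondrial and ribosomal genes lowered each of them by 0.14 on the log2 scale, which left *Ikzf3* at 0.45 and *Ikzf2* at -1.39.

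**Figure D2:**
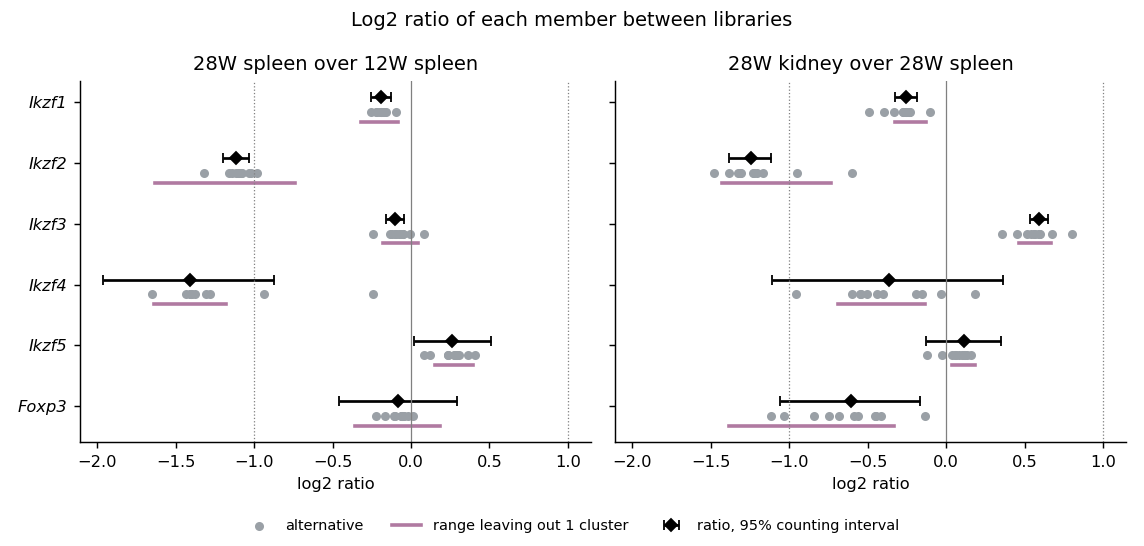
Log2 ratio of each member by age (left) and organ (right). Diamonds are the ratios with 95% counting intervals, grey points the ratios under other processing choices, purple lines the range when 1 cluster at a time is left out, and dotted lines mark 2-fold. Ikzf2 lies at -1.12 and -1.25, and Ikzf3 at -0.10 and 0.59.

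Within the spleens *Ikzf2* was uneven across clusters. In 12W spleen it was at 221 CPM in cluster 1, 162 CPM in cluster 9 and 797 CPM in cluster 8, while cluster 6 had 27.9 CPM and cluster 2 had 38.7 CPM. In 28W spleen cluster 3 had 135 CPM and cluster 11 had 339 CPM, while cluster 1 had 7.66 CPM and cluster 10 had 14.5 CPM. Cluster 10 carried other cell types, with 2695 CPM of the B cell list and 1123 CPM of the CD8 T cell list. High levels were thus held by a few clusters in each spleen, and 3 clusters of 28W spleen (1, 4 and 10) lay below every cluster of 12W spleen. Over the clusters, the ranges of the 2 spleens overlapped, with 9 of the 11 clusters of 28W spleen under the 12W median of 85.6 CPM.

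In kidney the range was narrower in CPM, from 7.42 CPM in cluster 7 to 56.8 CPM in cluster 10, with a median of 20.2 CPM. Cluster 7 had 2927 CPM of kidney tubule transcripts. Without the mitochondria-rich clusters, the highest was 7.66-fold above the lowest in kidney, 7.94-fold in 12W spleen and 17.7-fold in 28W spleen. Of the 12 kidney clusters 10 lay under the 28W spleen median of 38.7 CPM. Cluster 10, the highest, had 44 *Ikzf2* UMIs and 1822 UMIs per cell. The highest cluster of *Ikzf2* was 7.73-fold above the other cells in 12W spleen, 7.12-fold in 28W spleen and 2.81-fold in 28W kidney. In the spleens these were the mitochondria-rich clusters 8 and 11. Outside them the highest were cluster 1 of 12W spleen at 2.64-fold and cluster 3 of 28W spleen at 3.85-fold. The clusters were made from the same cells, so these folds are a description, and 58.4%, 51.6% and 42.7% of genes had a highest cluster at least 2-fold above the other cells.

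**Figure D3:**
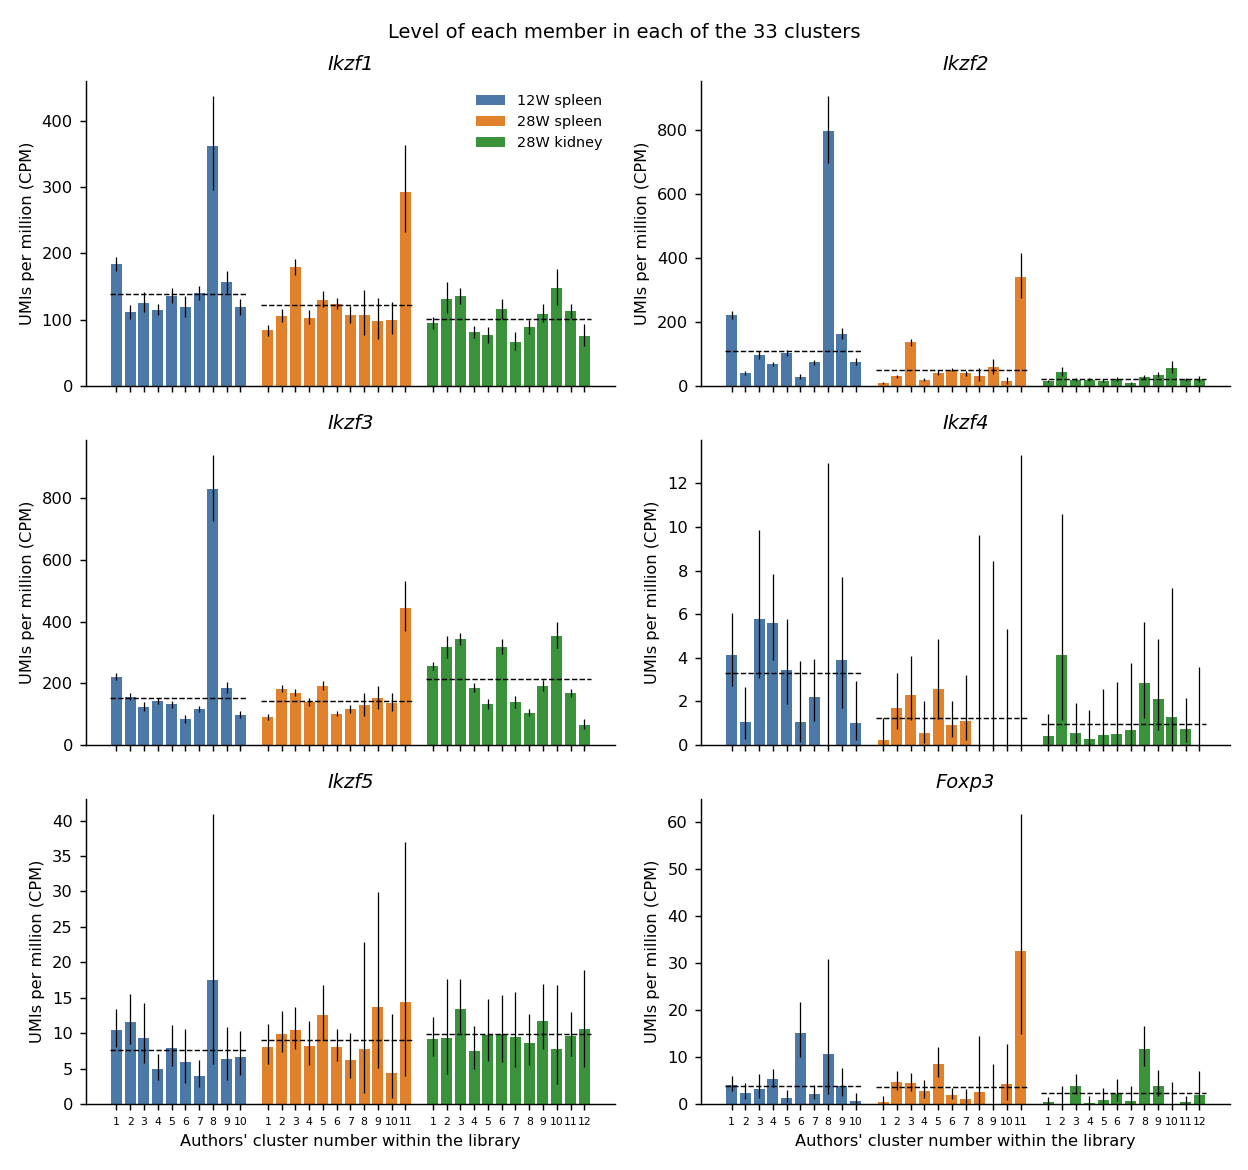
Level of each member in UMIs per 1000000 (CPM, linear axis from 0) in each of the 33 clusters, by the authors' cluster numbers, with exact 95% Poisson intervals and a dashed line at the level of the library. Ikzf2 and Ikzf3 peak in cluster 8 of 12W spleen (797 and 829 CPM) and cluster 11 of 28W spleen (339 and 444 CPM), the mitochondria-rich clusters.

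The highest clusters of both spleens were those with few UMIs per cell and many mitochondrial UMIs. At least 2-fold above the other cells on this scale were 42.3% of genes in cluster 8 of 12W spleen, 37.0% in cluster 11 of 28W spleen and 16.9% in cluster 2 of kidney. Counted per cell, *Ikzf2* in cluster 8 had 739 UMIs per 1000 cells, below clusters 9, 10, 1 and 7 of the same library at 1186, 1081, 1052 and 984. Cluster 11 of 28W spleen had 437 UMIs per 1000 cells, below cluster 3 at 712 and cluster 6 at 619. Per cell, the order of clusters therefore differed from the order per 1000000 UMIs, while the lowest clusters by either count included cluster 6 of 12W spleen and cluster 7 of kidney. Without these mitochondria-rich clusters the *Ikzf2* level was 103 CPM for 12W spleen, 47.7 CPM for 28W spleen and 20.4 CPM for kidney, and the range over clusters was 27.9 to 221, 7.66 to 135 and 7.42 to 56.8 CPM.

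Several spleen clusters with high *Ikzf2* also had high *Myb* and *Sox4*, transcription factors of lymphoid precursors. Cluster 11 of 28W spleen, the highest there in *Ikzf2*, had 209 CPM of *Myb* but 28.9 CPM of *Sox4*, near the 25.9 CPM of the library. Both genes carry nearly all counts of the thymocyte and precursor list, of which 2 to 3 of the 6 genes had no UMI in a library. The list stood at 373 CPM in cluster 1 of 12W spleen, 576 in cluster 8 and 236 in cluster 9, and at 292 CPM in cluster 3 of 28W spleen. Cluster 3 of 12W spleen had 217 CPM of the list with 95.9 CPM of *Ikzf2*, below the 109 CPM of the library. Cluster 2 and cluster 6 of 12W spleen, low in *Ikzf2*, had 21.2 and 23.0 CPM of the list. Across the 33 clusters, after the mean of each library was taken out, the Pearson correlation of *Ikzf2* with the list was 0.83, and 0.79 over the 30 clusters without the mitochondria-rich ones. The same correlation was 0.63 and 0.45 for *Ikzf1* and 0.38 and 0.04 for *Ikzf3*. Clusters of a library share its cells and depth, so these correlations describe the tables only.

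Clusters with at least 200 CPM of the precursor list held 57.3% of the *Ikzf2* UMIs of 12W spleen in 31.3% of its UMIs and 43.1% of its cells, over 4 clusters. In 28W spleen 2 such clusters held 46.3% of the *Ikzf2* UMIs in 15.9% of UMIs and 17.4% of cells. No kidney cluster reached this level, where the highest was 86.0 CPM in cluster 8. In the remaining clusters *Ikzf2* was at 67.6 CPM at 12 weeks, 32.0 CPM in spleen at 28 weeks and 21.1 CPM in kidney. The age ratio then was -1.08 on the log2 scale, still past 2-fold, and the organ ratio was -0.60, no longer past 2-fold. The 2-fold call also rested on single clusters, since without cluster 1 of 12W spleen the age ratio was -0.74, and without cluster 3 of 28W spleen the organ ratio was -0.73.

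**Figure D4:**
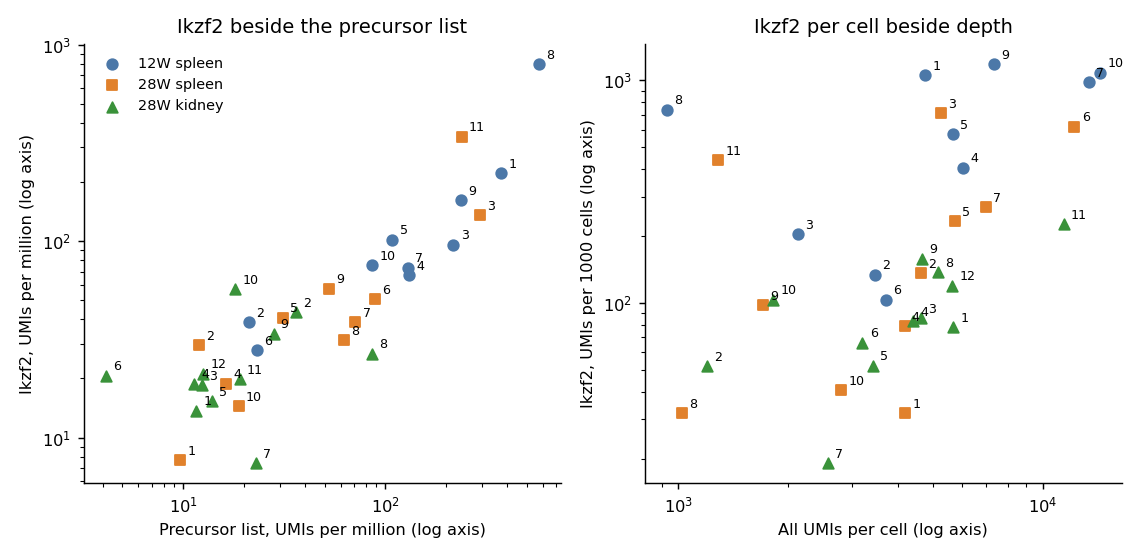
Left, Ikzf2 against the precursor list in each cluster, both in UMIs per 1000000 on log axes. Right, Ikzf2 UMIs per 1000 cells against all UMIs per cell, on log axes, with cluster numbers beside the points. The clusters with the most precursor list UMIs, 8 and 1 of 12W spleen and 3 of 28W spleen, are among the highest in Ikzf2, and per cell cluster 8 (739) lies below cluster 1 (1052).

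*Ikzf3* was more even in the spleens and higher over most of the kidney. Outside the mitochondria-rich clusters it ranged from 84.2 CPM in cluster 6 to 221 CPM in cluster 1 of 12W spleen, and from 90.4 CPM in cluster 1 to 192 CPM in cluster 5 of 28W spleen. In kidney clusters 10, 3, 6 and 1 had 354, 344, 319 and 256 CPM. The lowest, cluster 12 at 65.5 CPM and cluster 8 at 105 CPM, were the ones with 10060 CPM of myeloid list and 2022 CPM of B cell list transcripts. Of the 12 kidney clusters 8 lay above the 28W spleen median of 139.6 CPM. Without the clusters that carried lists of other cell types, *Ikzf3* was at 249 CPM in kidney against 142 CPM in 28W spleen, a log2 ratio of 0.80. Kidney cluster 11 was among those left out, for 1809 CPM of erythroid list transcripts. It also had 5387 CPM of the CD8 T cell list, with *Ikzf3* at 167 CPM. Counted per cell instead, the organ ratio was 0.36, at 4196 UMIs per cell in kidney and 4941 in 28W spleen.

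*Ikzf1* varied less among the clusters of 12W spleen and kidney than *Ikzf2* and *Ikzf3*. It ranged from 112 CPM in cluster 2 to 184 CPM in cluster 1 of 12W spleen outside the mitochondria-rich cluster, and from 83.6 CPM in cluster 1 to 179.8 CPM in cluster 3 of 28W spleen. In kidney it ranged from 66.1 CPM in cluster 7, where kidney tubule transcripts made up 2927 CPM, to 147 CPM in cluster 10. No kidney cluster lay above all clusters of 28W spleen, and 4 of 12 lay below all of them. The highest cluster in each spleen was again the mitochondria-rich one, at 362 CPM in 12W spleen and 293 CPM in 28W spleen.

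The balance of *Ikzf2* to *Ikzf3* was lower at 28 weeks, and lower again in kidney, where *Ikzf3* was higher. By age *Ikzf2* was lower (log2 -1.12), while *Ikzf3* (log2 -0.10) was at the median of all genes (-0.10). The ratio of their UMIs was 0.712 (0.683 to 0.742) in 12W spleen and came to 0.353 (0.333 to 0.374) in 28W spleen, with 0.0987 (0.0908 to 0.107) in kidney. It was 2.02-fold lower in 28W than in 12W spleen and 3.58-fold lower in kidney than in 28W spleen. The clusters of 12W spleen ranged from 0.248 to 0.999, those of 28W spleen from 0.0848 to 0.803 and those of kidney from 0.0535 to 0.324. Clusters 3, 6, 9 and 7 of 28W spleen, at 0.803, 0.5, 0.379 and 0.333, lay within the range of 12W spleen. So did kidney clusters 12 and 8, at 0.324 and 0.256. The mitochondria-rich clusters of the spleens, at 0.962 and 0.764, were not apart from that range, while that of kidney, cluster 2, was at 0.137. Scaling to the library total does not enter this ratio. The ratio of *Ikzf3* to *Ikzf1* UMIs was 1.10 and 1.17 in the spleens and 2.11 in kidney.

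**Figure D5:**
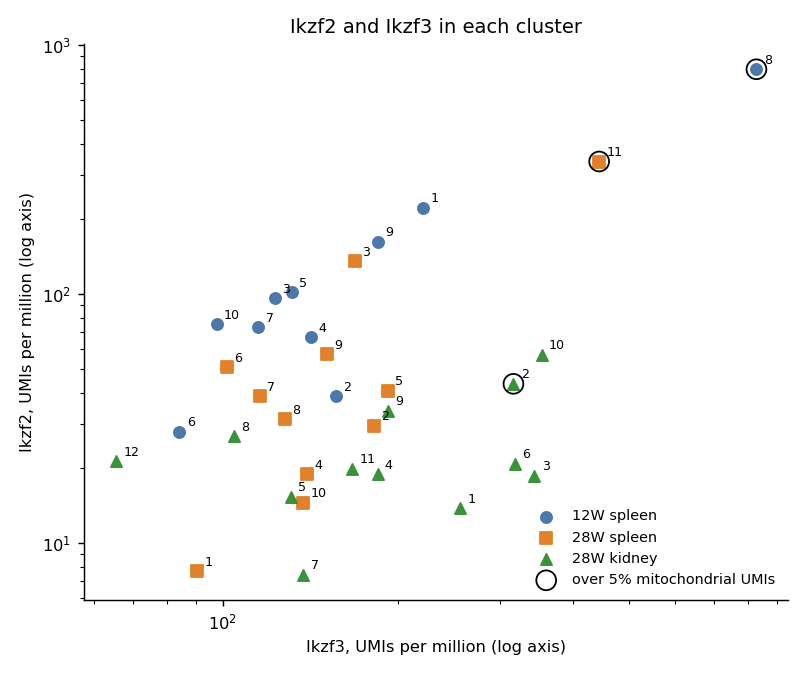
Ikzf2 against Ikzf3 in each of the 33 clusters, in UMIs per 1000000 on log axes, with cluster numbers beside the points and rings on the 3 clusters with over 5% mitochondrial UMIs. Kidney clusters lie low for Ikzf2 (7.42 to 56.8 CPM) at Ikzf3 levels of 65.5 to 354 CPM.

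*Ikzf5* showed no cluster well apart from the rest. In kidney it ranged from 7.52 to 13.4 CPM, in 28W spleen from 4.34 to 14.4 CPM and in 12W spleen from 4.01 to 17.6 CPM, where the highest value rests on 5 UMIs. *Ikzf4* was listed at 0 in cluster 8 of 12W spleen, in clusters 8 to 11 of 28W spleen and in cluster 12 of kidney. Its highest clusters were 3 and 4 of 12W spleen, at 5.77 CPM on 13 UMIs and 5.61 CPM on 34 UMIs. In 28W spleen no cluster had more than 2.56 CPM, and all 11 lay under the 12W median of 2.83 CPM. In kidney 8 of the 29 *Ikzf4* UMIs were in cluster 8, which held 9.36% of all kidney UMIs. The 5 clusters with lists of other cell types had 16 (55.2%), against 34.7% of all kidney UMIs.

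*Foxp3* was low, and a few clusters held much of it. In 12W spleen cluster 6 had 28 of 131 UMIs at 15.01 CPM (9.97 to 21.7), and cluster 4 had 32 UMIs at 5.28 CPM (3.61 to 7.45). Cluster 6 had 1240.5 CPM of *Cd8b1* and 0 *Cd4* UMIs, and it was the cluster with the least *Ikzf2*. Of the 14 regulatory T cell genes 3 were above the level of the library there and 10 below it, among them *Ctla4* at 19.8 against 32.6 CPM and *Tigit* at 1.61 against 16.8 CPM. Such counts, here and below, use no fold. The share of all genes above the library level in a cluster was not worked out, so the counts describe these genes only. In 28W spleen cluster 5 had 30 of 114 UMIs at 8.53 CPM (5.76 to 12.2), with 1395 CPM of *Cd8b1* and 1 *Cd4* UMI. Of the same 14 genes 8 were above the level of the library there and 6 below it. *Ctla4* was at 188 against 95.6 CPM, *Nrp1* at 50.04 against 26.2 CPM, *Tigit* at 19.3 against 26.3 CPM and *Il2ra* at 2.27 against 3.25 CPM. *Nrp1* was also at 53.1 CPM in cluster 4, where *Foxp3* was at 2.81 CPM. Cluster 11 was higher, at 32.5 CPM (14.9 to 61.7), on 9 UMIs.

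In kidney cluster 8 held 33 of the 70 *Foxp3* UMIs at 11.8 CPM (8.11 to 16.5), 8.64-fold above the other cells. It had 2022 CPM of the B cell list, 393 CPM of *Cd8b1* against 1119 CPM over the library, and 12.5 CPM of *Cd4* on 35 UMIs. Of the 14 regulatory T cell genes 9 were above the level of the library there and 5 below it, by the same count without a fold. *Ctla4* was at 213 against 43.9 CPM, *Icos* at 257 against 120 CPM, *Nrp1* at 14.99 against 29.7 CPM and *Entpd1* at 9.99 against 35.2 CPM. Cell types within this cluster could not be separated in the tables, and their part in the *Foxp3* level was not tested. Without the 5 kidney and 2 spleen clusters that carried lists of other cell types, *Foxp3* was at 1.64 CPM in kidney and 3.55 CPM in 28W spleen, a log2 ratio of -1.12. It was under the 5 CPM of the background in both libraries, and the kidney clusters left out held 54.3% of its 70 kidney UMIs. Without kidney cluster 8 alone the ratio was -1.38. *Ikzf2* in kidney cluster 8 was at 26.8 CPM, near the 21.1 CPM of the library.

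Across the 33 clusters the abundant members varied together. After the library mean was taken out of log2(CPM + 10), the Pearson correlation was 0.89 for *Ikzf1* with *Ikzf2*, 0.85 for *Ikzf1* with *Ikzf3* and 0.71 for *Ikzf2* with *Ikzf3*. Over the 30 clusters without the mitochondria-rich ones these were 0.74, 0.68 and 0.39. *Foxp3* had 0.42 with *Ikzf2* and 0.34 with *Ikzf3*, and -0.056 and -0.083 without the mitochondria-rich clusters. *Ikzf4* had -0.02, 0.09 and -0.07 with *Ikzf1*, *Ikzf2* and *Ikzf3*, and 0.37, 0.54 and 0.24 without the mitochondria-rich clusters, on few UMIs per cluster.

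The genes most like a member were sought among the 3374 with at least 1000 UMIs in every library, by the same correlation over 33 clusters. For *Ikzf1* they were *Acin1*, *Prrc2c*, *Eml4*, *Ttc3* and *Sltm*, at 0.94, 0.93, 0.93, 0.93 and 0.93. *Acin1*, a splicing-associated chromatin protein, was also first without the mitochondria-rich clusters, at 0.90. For *Ikzf3* they were *Ptpn22*, *Agap2*, *Xrn1*, *Rasgrp1* and *Peak1*, at 0.92, 0.92, 0.92, 0.92 and 0.91. *Ptpn22* encodes a phosphatase that restrains antigen receptor signalling and *Rasgrp1* an activator of Ras below that receptor. Without the mitochondria-rich clusters *Rgs3* came first for *Ikzf3*, at 0.89, and *Agap2* and *Xrn1* stayed among the 5. All of these genes but *Rgs3* peaked in the mitochondria-rich cluster of 12W spleen. *Ikzf2* had too few kidney UMIs for this rule. With a minimum of 500 UMIs, chosen after its counts were seen, *Ugcg* and *Chd4* came first at 0.91 each, and *Chd4*, the NuRD helicase, was first without the mitochondria-rich clusters at 0.87.

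The partners of the family were next examined by lists of genes. Of the 13 NuRD genes, all with at least 5 CPM, 0 were past 2-fold by age or by organ, with median log2 ratios of -0.19 and -0.05 against -0.10 and 0.08 over all genes. Over all genes 1.27% were at least 2-fold lower and 2.26% higher by age, and 1.77% and 7.12% by organ. The levels of *Chd4* were 143, 122 and 106 CPM, from 12W spleen over 28W spleen to kidney, and *Hdac2* had the lowest age ratio of the list, -0.49. Among the CtBP and Sin3 co-repressors 0 of 3 were past 2-fold in either comparison. The cereblon ubiquitin ligase degrades Ikaros and Aiolos in human cells when bound by thalidomide analogues. Of its 5 genes 0 were past 2-fold, with *Crbn* itself at 28.1, 32.5 and 34.4 CPM. Lists this short cannot be told apart from the shares over all genes.

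Of 8 transcription factors known to work with Foxp3, *Satb1*, a chromatin organiser of naive T cells, was 2.16-fold lower at 28 weeks and 4.11-fold lower in kidney than in 28W spleen. By organ *Bach2* was also lower, 2.01-fold, and *Xbp1* higher, 2.096-fold. These were 1 of 8 lower by age (1.27% of all genes), and 2 of 8 lower (1.77%) and 1 of 8 higher (7.12%) by organ. *Runx3*, which sets CD8 T cell identity, stayed within 2-fold at 90.0, 122 and 158 CPM. Of 4 cytokine genes on which Ikaros proteins are known to act, 2 had at least 5 CPM in a spleen. Both were past 2-fold higher at 28 weeks (2.26% of all genes), *Ifng* 6.33-fold and *Tnf* 2.08-fold, while *Il4* had 4 and 5 UMIs. By organ *Il2* was 3.86-fold higher, from 1.69 to 6.51 CPM, while *Ifng* (log2 0.42) and *Tnf* (log2 0.98) stayed under 2-fold. That was 1 of the 3 cytokine genes with at least 5 CPM, against 7.12% of all genes.

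Genes of regulatory T cells did not shift one way. By age 4 of the 11 with at least 5 CPM were past 2-fold higher (2.26% of all genes) and 1 lower (1.27%). The inhibitory receptor *Ctla4* was 2.94-fold, *Nrp1* 4.11-fold and *Nt5e*, the ectoenzyme CD73, 3.02-fold higher, *Tnfrsf4* (OX40) was 2.18-fold higher, and *Gpr83* was 9.30-fold lower. By organ 2 of 10 were higher (7.12% of all genes), *Entpd1* (CD39) 5.37-fold and *Tigit* 2.96-fold, and 2 were lower (1.77%), *Itgae* (the integrin CD103) 2.38-fold and *Ctla4* 2.18-fold. *Il2ra*, the receptor chain by which regulatory T cells are usually gated, stayed at 4.49, 3.25 and 4.44 CPM. *Lrrc32* had 4, 1 and 10 UMIs and *Il10* had 0, 7 and 54 UMIs, the former's largest share, 5 UMIs, in cluster 12 of kidney, the one with the most myeloid list transcripts, and the latter's, 27 UMIs, in cluster 8. The Ly49 genes tied to CD8+ regulatory T cells were sparse, and *Klra3* was not listed in any library. How reads of NZB/W F1 mice map to these genes of GRCm38 was not examined. *Klra6* was at 5.12, 3.28 and 0.735 CPM, the only Ly49 gene with at least 5 CPM by age and within 2-fold there, and no Ly49 gene had that level by organ. *Il2rb*, the interleukin receptor chain in the same list, was within 2-fold in both comparisons, at 181, 202 and 197 CPM.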

How the data were processed

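The labels list 12 samples, 4 per group (12W spleen, 28W spleen, 28W kidney), made with the 10x Genomics Chromium 5′ v2 kit. The submitters' processing notes name Cell Ranger 2.1.1 and R 3.6.1, and the study's methods name its vdj pipeline and GRCm38. Filters on cells, treatment of doublets and the annotation release are not given in the sources used here. The deposited tables of a library give, as the authors made them, the cluster of each cell barcode and the mean count of each gene per cluster, scaled to the median UMIs per cell (3853, 4128 and 3501). The tables also hold fold changes and adjusted p-values of the authors' own comparisons, which were not used.

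Each deposited mean was a whole multiple of the smallest value of its column (largest deviation 1.31e-08), which gave whole UMIs. UMIs were summed over clusters and divided by the total of the library or cluster. The 3 tables were scaled separately by the authors, so levels across libraries rest on these totals. There is 1 library per group and thus no test. Poisson limits and conditional binomial limits of ratios, without pseudocount, are exact at 95%, and a gene at 0 was set to 3 counts. Correlations used log2(CPM + 10).

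Members were chosen by symbol, and gene lists, comparisons and thresholds with earlier results of these data known. The text names the 6 members, the 5 genes most like each member with at least 1000 UMIs in every library, and the genes of each partner list past 2-fold (at most 4 per list and comparison, with at least 5 CPM). *Chd4*, *Hdac2*, *Crbn*, *Runx3*, *Il2ra*, *Il2rb*, *Il4*, *Myb*, *Sox4*, *Klra6*, *Lrrc32*, *Il10* and the genes given for *Foxp3* clusters were named in addition. The list of precursor genes was applied at 200 CPM after the values were seen. Clusters of other cell types were those with at least 500 CPM of the B cell, myeloid, kidney tubule or erythroid list, at least 5-fold above the other cells. A cluster left out by this rule can still hold CD8 T cells. Kidney cluster 11 had 1809 CPM of the erythroid list and 5387 CPM of the CD8 T cell list. Cluster 3 of 12W spleen had 37158 and 4128 CPM of the same lists. Coordinates and coding sequence came from GRCm38 with GENCODE M21. The scripts were tested on simulated data. Python 3.11.15, pandas 2.3.3, numpy 2.4.6, SciPy 1.17.1 and matplotlib 3.10.9 were used. Receptor clonotypes were not analysed here.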

Additional observations from a re-analysis of the deposited data

How the results depend on the processing

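All 3 libraries lack replicates, so the values below limit the ratios by processing only, and depth limits *Ikzf4* and *Foxp3*, with at most 131 UMIs in a library. No paired analysis was possible because each group's samples are pooled in 1 table and no result comes from a test. Of the alternatives to the 12 log2 ratios, 119 differed from the reported value by less than its counting interval and 37 by more. The sign differed in 7 of the 156, which are 2 for *Ikzf3* and 2 for *Foxp3* by age, and 1 for *Ikzf4* and 2 for *Ikzf5* by organ. *Foxp3* by age was at 0.016 when scaled by the median gene ratio and at 0.18 without cluster 6 of 12W spleen.

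By age, leaving out 1 cluster at a time gave log2 ratios of -0.32 to -0.084 for *Ikzf1*, -1.63 to -0.74 for *Ikzf2* and -0.18 to 0.047 for *Ikzf3*. The sign of *Ikzf3* changed without cluster 1 of 12W spleen (0.047), and also without the precursor gene clusters (0.084). Scaling by the median gene ratio gave -0.093, -1.02 and -0.0055 for *Ikzf1*, *Ikzf2* and *Ikzf3*, and cluster means weighted by cells gave -0.26, -1.32 and -0.24. A pseudocount of 10 CPM gave -0.98 for *Ikzf2* and -0.24 for *Ikzf4*. Members at least 2-fold lower by age numbered 2 (*Ikzf2* and *Ikzf4*), 1 with a pseudocount of 1 CPM and 0 with 10 CPM. Of genes with at least 5 CPM, 1.27% were at least 2-fold lower, and *Ikzf4* was under that level.

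By organ, leaving out 1 cluster gave -0.33 to -0.13 for *Ikzf1*, -1.43 to -0.73 for *Ikzf2*, 0.46 to 0.67 for *Ikzf3* and -1.38 to -0.33 for *Foxp3*. The total without receptor, immunoglobulin, mitochondrial and ribosomal genes gave -0.40, -1.39 and 0.45 for *Ikzf1*, *Ikzf2* and *Ikzf3*, UMIs per cell gave -0.49, -1.48 and 0.36, and leaving out precursor gene clusters gave -0.11, -0.60 and 0.67. Scaling by the median gene ratio gave -0.34 for *Ikzf1* and 0.51 for *Ikzf3*. Without clusters of other cell types *Ikzf3* was at 0.80 and *Foxp3* at -1.12. A pseudocount of 10 CPM gave -0.95 for *Ikzf2* and -0.14 for *Foxp3*. Members at least 2-fold lower by organ numbered 1, 2 with cluster means weighted by cells, 2 without clusters of other cell types, and 0 with a pseudocount of 10 CPM or without precursor gene clusters. Of genes with at least 5 CPM, 1.77% were at least 2-fold lower by organ, and *Ikzf4* and *Foxp3* were under that level. The correlations of *Foxp3* with *Ikzf2* and *Ikzf3* changed sign without the mitochondria-rich clusters, to -0.056 and -0.083, as did 4 of the 5 correlations of *Ikzf4*. With a minimum of 1 CPM in place of 5, genes at least 2-fold higher by age made up 3.91% in place of 2.26%, those lower by age 2.51% in place of 1.27%, and those higher by organ 13.6% in place of 7.12%. The causes of these shifts were not tested. Leaving out precursor gene or mitochondria-rich clusters, UMIs per cell and the minimum of 500 UMIs were chosen after seeing the data.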
